A study of Arabidopsis thaliana with 4 samples.

Results

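The JASMONATE ZIM-DOMAIN (JAZ) proteins are the repressors of jasmonate signaling. The genes described here are *JAZ1*, *JAZ2*, *JAZ3*, *JAZ5*, *JAZ6*, *JAZ7*, *JAZ8*, *JAZ9*, *JAZ10* and *JAZ12*. They were taken by their gene identifiers, with no cutoff on a measured value but with earlier results of these data known. *JAZ4*, *JAZ11* and *JAZ13* are not among them. All 10 had reads in at least 1 library, among 23425 genes with reads in the series. RNA from the roots of *Arabidopsis thaliana* seedlings aged 8 days was sequenced in 4 libraries: *arf7*-NAA, *arf7*-Mock, WT-NAA and WT-Mock, 1 library each. WT is the wild type Col, and *arf7* is a mutant of *AUXIN RESPONSE FACTOR7*, which encodes a transcription factor of the auxin pathway. NAA, naphthalene acetic acid, is a synthetic auxin, given at 10 μM for 4 hours, and Mock seedlings received none. The dose and the time come from the methods and not from the labels, the deposited comparison tables mark these libraries with an unexplained N50, so that the dose is not settled, the *arf7* allele is not named in the labels, and how many seedlings were pooled for a library is not given in the sources used here. On growth the sources differ, since dark is given in the labels and a greenhouse with a photoperiod in the methods.

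In cells with little jasmonate, JAZ proteins bind MYC2 and related transcription factors and hold them inactive, together with the adaptor NINJA and corepressors of the TOPLESS family. Jasmonoyl-isoleucine, the active hormone, joins JAZ proteins to the F-box protein COI1, after which they are degraded and the transcription factors are released. Most JAZ genes are themselves induced by jasmonate through MYC2, so their transcripts are widely used as a readout of the pathway, and in roots jasmonate is known for restraining elongation.

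MYC2 binds the G-box, CACGTG, and the sequence around each G-box found upstream of a JAZ gene is shown first. The 500 bases before each gene start were read from the TAIR10.1 genome and its RefSeq annotation, and motifs were searched on both strands. A G-box was found in 6 of the 10 genes, *JAZ2*, *JAZ3*, *JAZ6*, *JAZ7*, *JAZ8* and *JAZ9*, against 9.35% of 27443 protein-coding genes searched in the same way. The related motif CACATG was found in *JAZ1*, *JAZ9* and *JAZ10* (3 of 10, 21.1% of all genes). The auxin response motif TGTCTC was found in *JAZ1*, *JAZ2*, *JAZ3* and *JAZ7* (4 of 10, 21.3%), its variant TGTCGG in *JAZ3* and *JAZ6* (2 of 10, 7.69%), and the ethylene response motif GCCGCC in *JAZ8* (1 of 10, 4.12%). No motif searched is contained in another, and a match is a description of the letters, not of binding. Each line below is read 5′ to 3′ on the strand of the gene, with the G-box in capitals:
*JAZ2* (chr1:28150495-28150524, reverse strand, 66 bases before the gene start): attaaattaaaaCACGTGttttaaatgtct
*JAZ3* (chr3:6119555-6119584, forward strand, 140 bases before): gttaaaatagcgCACGTGcctcgccacgcg
*JAZ3* (chr3:6119613-6119642, forward strand, 82 bases before): tgcacgacgatgCACGTGcctttttaaccg
*JAZ6* (chr1:27277023-27277052, reverse strand, 478 bases before): ataacaatacttCACGTGtccttaaacttt
*JAZ7* (chr2:14572984-14573013, forward strand, 34 bases before): aaaagcattttaCACGTGcgtgaagagaaa
*JAZ8* (chr1:10596330-10596351, forward strand, 10 bases before): aaaaacattttcCACGTGagag
*JAZ9* (chr1:26654151-26654180, forward strand, 366 bases before): attcaaaaatttCACGTGttatgaaatgag
*JAZ3* was the member with more than 1 G-box in this window, and the *JAZ8* stretch ends at the gene start and is therefore 22 bases long.

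The library totals lay between 7.03 and 7.57 M reads, and 21384 to 21633 genes had reads in a library. Each condition has 1 library, so differences have no replicate check and every test compares libraries, not conditions. All intervals given are exact 95% intervals for counting error alone. They use equal tails, while the exact tests sum all outcomes no likelier than the observed one. An interval can therefore hold 0 where the exact P is under 0.05. In RNA of whole roots, fewer cells of a type and less RNA per cell cannot be told apart. *ARF7* had 3, 8, 12 and 6 reads in *arf7*-NAA, *arf7*-Mock, WT-NAA and WT-Mock, too few to check the genotype labels. Only reads assigned uniquely to a transcript model were deposited, so genes with several models lose reads. *ARF7* has 2 listed models, with at most 2.1% of the length covered in any library. For it and for the markers below, a low count or 0 is not evidence of a silent gene. All 7 root markers had reads, with sums between 6012 and 8535 reads. The *arf7*-NAA library stood apart by 102 reads of seed genes, with reads for 6 of 9 markers and the cruciferin genes *CRA1*, *CRU2* and *CRU3* at 0, against 1, 0 and 0 reads in *arf7*-Mock, WT-NAA and WT-Mock. *PAP85* (66 reads) and *OLEO2* (23) made up most of them. It also had 642 reads of shoot and green tissue markers (4 of 5 with reads, *LHCA1* at 0), against 110, 293 and 402 in the same order. *LHCB1.3*, a chlorophyll-binding protein gene, had 530, 81, 238 and 317 of them in *arf7*-NAA, *arf7*-Mock, WT-NAA and WT-Mock, *RBCS1A* 72, 15, 12 and 23, and *LHCB3* 36, 12, 40 and 57. Every JAZ value of *arf7*-NAA below carries this, and the part of these tissues in it was not tested.

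*JAZ12*, *JAZ2* and *JAZ6* held most of the reads deposited for these 10 genes. Together they had 84.1% of these reads in *arf7*-NAA (870 of 1034, exact binomial interval 81.8 to 86.3), 81.1% in *arf7*-Mock (1040 of 1283, 78.8 to 83.2), 82.3% in WT-NAA (959 of 1165, 80.0 to 84.5) and 88.3% in WT-Mock (1075 of 1218, 86.3 to 90.0). Levels are given as RPKM, the reads scaled by transcript length and by the library total, which makes genes of different length comparable. The files list 1 transcript model for 6 of the genes and several for *JAZ1*, *JAZ3*, *JAZ9* and *JAZ10*. Only reads assigned uniquely to a model were deposited, so the levels of these 4 genes are understated and are not ranked against the others, and the shares above are too high by an unknown amount.

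*JAZ12* (AT5G20900, TAIR10.1 chr5:7090704-7092539, forward strand, 5 exons), whose protein is known to bind the ubiquitin ligase KEEP ON GOING, was the highest of the 6 genes with 1 listed model. Its level was 56.3 RPKM in *arf7*-NAA, 61.3 in *arf7*-Mock, 59.6 in WT-NAA and 64.4 in WT-Mock, from 428, 479, 478 and 527 reads over 83.0 to 90.6% of its length. *JAZ2* (AT1G74950, chr1:28148574-28150446, reverse strand), a repressor best known from stomatal guard cells, stood at 34.1, 39.4, 35.7 and 36.0 RPKM in the same order, from 307, 365, 339 and 349 reads. *JAZ6* (AT1G72450, chr1:27273968-27276562, reverse strand), known for its part in defence against fungi, had 15.2 RPKM in *arf7*-NAA, 21.5 in *arf7*-Mock, 15.2 in WT-NAA and 20.8 in WT-Mock, from 135, 196, 142 and 199 reads. In every library the intervals of these 3 genes did not overlap each other. Over the 4 libraries *JAZ12* and *JAZ2* varied least, by 0.19 and 0.21 on the log2 RPKM scale, and *JAZ6* by 0.50 with both NAA libraries below both Mock libraries.

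**Figure D1:**
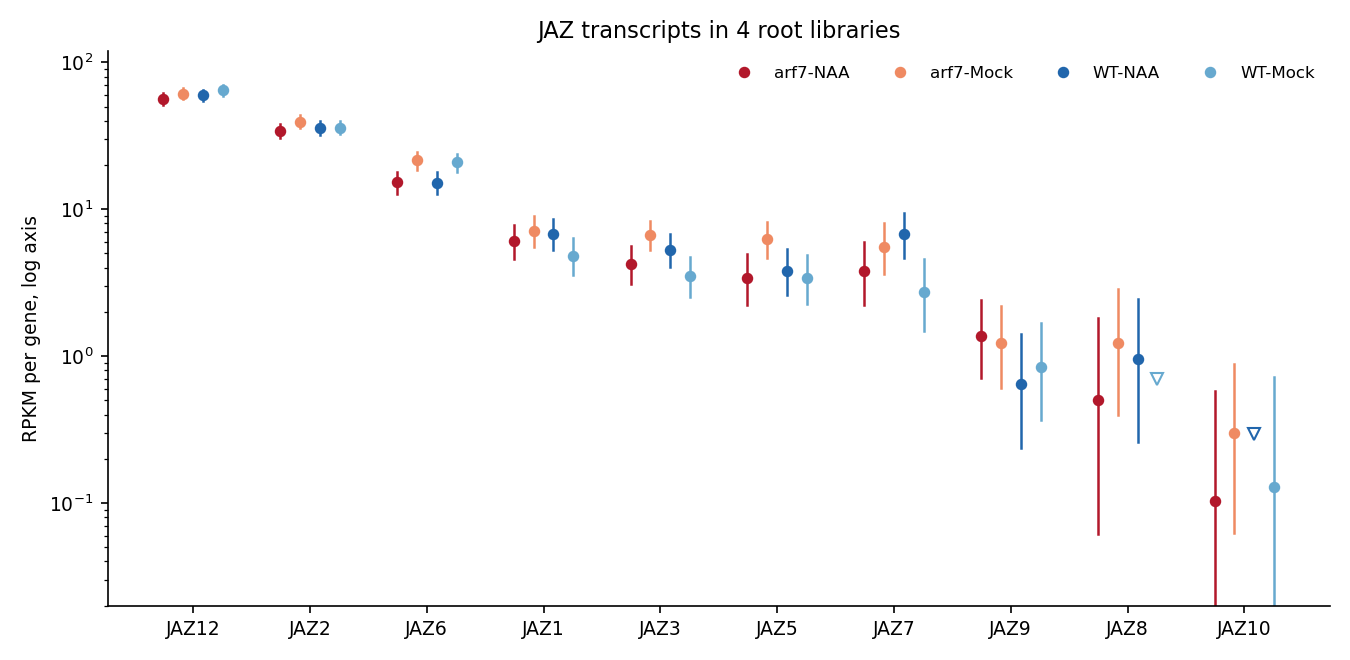
Level of each JAZ gene in RPKM (log axis) in the 4 root libraries, with points for the values, lines for the exact 95% Poisson intervals (cut at the lower edge of the plot) and open triangles for a library with 0 reads, placed at the level 3 reads would give. *JAZ12*, *JAZ2* and *JAZ6* sit above 15 RPKM in every library, and *JAZ8* and *JAZ10* rest on 5 reads or fewer.

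The other 3 single-model genes were lower. *JAZ5* (AT1G17380, chr1:5955155-5957511, reverse strand), the closest relative of *JAZ6*, had 3.39 RPKM in *arf7*-NAA, 6.23 in *arf7*-Mock, 3.81 in WT-NAA and 3.38 in WT-Mock (27, 51, 32 and 29 reads), so that *arf7*-Mock was the high library. *JAZ7* (AT2G34600, chr2:14573030-14573952, forward strand), which encodes a short repressor that can contact TOPLESS directly, had 3.78, 5.52, 6.77 and 2.73 RPKM (18, 27, 34 and 14 reads). WT-NAA was its highest library and WT-Mock its lowest, and the intervals of its level overlapped those of *JAZ5* in every library. *JAZ8* (AT1G30135, chr1:10596352-10597341, forward strand), whose protein lacks the usual degron and resists hormone-driven degradation, had 2, 5, 4 and 0 reads. The 0 reads in WT-Mock allow up to 3.

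Of the genes with several models, *JAZ1* (AT1G19180, chr1:6621777-6623668, forward strand), one of the first JAZ repressors characterised and known as an auxin-inducible one, had 57, 70, 68 and 49 reads in *arf7*-NAA, *arf7*-Mock, WT-NAA and WT-Mock. *JAZ3* (AT3G17860, chr3:6119707-6123044, forward strand), the gene mutated in the jasmonate-insensitive line *jai3-1*, had 47, 76, 62 and 42 reads, nearly all from its first model. In both genes the *arf7*-Mock and WT-NAA libraries were the higher pair. *JAZ9* (AT1G70700, chr1:26654529-26657350, forward strand), a repressor that also binds DELLA proteins, had 12, 11, 6 and 8 reads. *JAZ10* (AT5G13220, chr5:4218786-4221077, forward strand), known for splice forms that escape degradation and used as a marker of jasmonate response, had 1, 3, 0 and 1 reads and is given no ratio. Genes that share sequence could exchange reads, but the longest exact stretch common to any of the 45 pairs of JAZ genes was 20 bases, in *JAZ1* with *JAZ2* and *JAZ5* with *JAZ6*.

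Whether NAA changed JAZ transcripts in WT roots was asked by comparing WT-NAA with WT-Mock. *JAZ6* was lower and *JAZ7* higher in WT-NAA, neither past all thresholds for a differential gene, and the interval of the summed JAZ ratio held 0. A gene was called with P under 0.0001 in an exact two-sided binomial test of its reads given the library totals, and a ratio at or past 2-fold either way. By this rule 0 of 10 JAZ genes were called, where 1.09% of 22469 genes were called. Before adjustment 3 JAZ genes had an exact P under 0.05 (*JAZ3*, *JAZ6* and *JAZ7*), against 19.8% of all genes. After Benjamini-Hochberg adjustment over all genes 2 had a p under 0.05 (*JAZ6* and *JAZ7*), against 11.5% of all genes. All of these lie among the 7 members with at least 20 reads in a library, and of all genes at that depth 27.9% had P under 0.05 and 16.8% an adjusted p under 0.05.

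*JAZ6* had 142 reads in WT-NAA against 199 in WT-Mock, a log2 ratio of -0.46 (interval -0.78 to -0.14, exact binomial p = 0.004, adjusted p = 0.037). *JAZ7* had 34 reads in WT-NAA against 14 in WT-Mock, a log2 ratio of 1.31 (0.37 to 2.32, exact binomial p = 0.0035, adjusted p = 0.033), where 43 reads in WT-NAA would have been needed for a call. With a coefficient of variation of 0.2 between samples assumed in edgeR, the unadjusted p was 0.3 for *JAZ6* and 0.046 for *JAZ7*, and no adjusted p was under 0.05. *JAZ7* was the 1 member of 7 with at least 20 reads in a library that passed 2-fold, as did 3.4% of all such genes. *JAZ3* (0.59, 0.00 to 1.19, adjusted p = 0.21) and *JAZ1* (0.50, -0.05 to 1.06, exact p = 0.065) lay above 0 and did not pass the adjustment. The ratios of *JAZ12* (-0.11, -0.29 to 0.07), *JAZ2* (-0.01, -0.23 to 0.21) and *JAZ5* (0.17, -0.60 to 0.95) had intervals that held 0 and excluded a 2-fold difference. Over the 9 genes with a ratio 5 were higher and 4 lower in WT-NAA, with a median log2 ratio of 0.17 against -0.02 over all genes. The summed JAZ reads gave a log2 ratio of -0.03 (-0.15 to 0.08).

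Comparing *arf7*-NAA with *arf7*-Mock, *JAZ6* was lower in *arf7*-NAA, and 8 of the 9 JAZ ratios lay below 0, of which 3 had an interval that did not hold 0. The median log2 ratio was -0.50, against -0.02 over all genes, and the summed reads gave -0.27 (interval -0.39 to -0.15). None of 10 genes was called (0, against 0.776% of 22557 genes). An exact P under 0.05 was found for 3 (*JAZ3*, *JAZ5* and *JAZ6*; 17.8% of all genes) and an adjusted p under 0.05 for 1 (*JAZ6*; 9.09% of all genes). Among all genes with at least 20 reads in a library the shares were 24.9% and 13.2%, and 0 of the 7 members at that depth passed 2-fold, against 2.61% of genes.

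*JAZ6* had 135 reads in *arf7*-NAA against 196 in *arf7*-Mock, a log2 ratio of -0.50 (-0.82 to -0.17, exact binomial p = 0.0021, adjusted p = 0.027). This was close to its ratio in WT, and *JAZ6* was 1 of 362 genes (1.68% of 21601) lower with an adjusted p under 0.05 in both NAA comparisons. The edgeR exact test with the same assumed coefficient gave *JAZ6* an unadjusted p of 0.27. *JAZ5* had 27 reads against 51 (-0.88, -1.61 to -0.18, adjusted p = 0.11) and *JAZ3* had 47 against 76 (-0.65, -1.21 to -0.11, adjusted p = 0.12), and neither passed the adjustment. *JAZ7* (-0.54, -1.49 to 0.37) and *JAZ1* (-0.26, -0.79 to 0.27) lay below 0 with intervals that held 0. The intervals of *JAZ2* (-0.21, -0.43 to 0.01) and *JAZ12* (-0.12, -0.31 to 0.07) also held 0 and lay within 2-fold. *JAZ8* had 2 reads against 5 and *JAZ9* 12 against 11, too few to order.

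**Figure D2:**
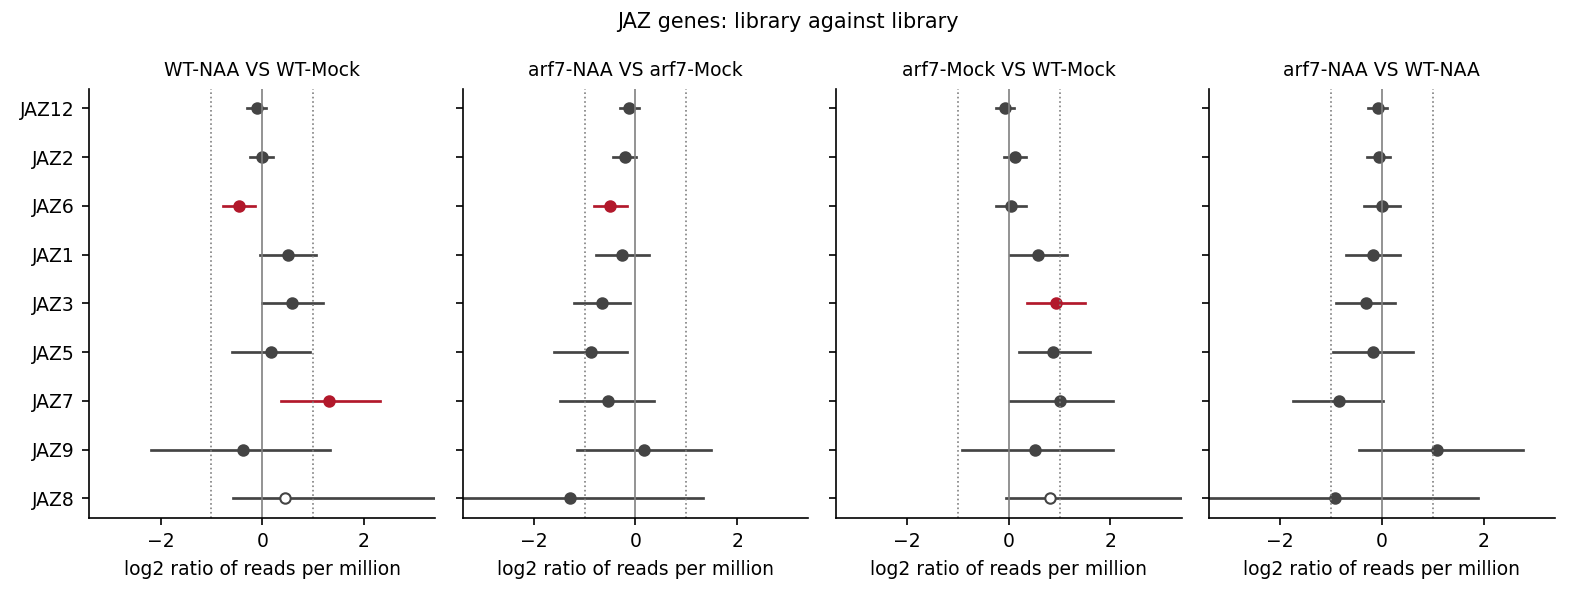
Log2 ratios of reads scaled to the library totals for 9 JAZ genes in the 4 comparisons, with exact 95% intervals (cut at the plot edge), dotted lines at 2-fold, red for an adjusted p under 0.05 and an open point where 0 reads were set to 3. *JAZ6* is red in both NAA comparisons, *JAZ7* in WT-NAA VS WT-Mock and *JAZ3* in *arf7*-Mock VS WT-Mock, and no point is red in *arf7*-NAA VS WT-NAA.

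The effect of the mutation without NAA was asked by comparing *arf7*-Mock with WT-Mock, which does not use the *arf7*-NAA library. The green tissue markers differed here too, with 110 reads in *arf7*-Mock against 402 in WT-Mock and 2 of 4 called lower, *LHCB1.3* (log2 ratio -1.90) and *LHCB3* (-2.18), and their part in the JAZ values was not tested. *JAZ3* was higher in *arf7*-Mock, and 8 of 9 JAZ ratios lay above 0, with a median log2 ratio of 0.58 against 0.02 over all genes. The summed reads, most of them from *JAZ12*, *JAZ2* and *JAZ6*, gave 0.14 (interval 0.03 to 0.26). None of 10 genes was called (0, against 1.04% of 22537 genes). An exact P under 0.05 was found for 5 (*JAZ1*, *JAZ3*, *JAZ5*, *JAZ7* and *JAZ8*; 22.0% of all genes) and an adjusted p under 0.05 for 1 (*JAZ3*; 13.3% of all genes). At 20 reads or more in a library the shares of all genes were 31.3% and 19.6%, and 4 and 1 of the 7 members passed.

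*JAZ3* had 76 reads in *arf7*-Mock against 42 in WT-Mock, a log2 ratio of 0.92 (0.36 to 1.50, exact binomial p = 0.00085, adjusted p = 0.0091), where 84 reads in *arf7*-Mock would have been needed for a call. Its unadjusted edgeR p with the same assumed coefficient was 0.069. *JAZ5* had 51 against 29 (0.88, 0.20 to 1.59, adjusted p = 0.067) and *JAZ7* 27 against 14 (1.01, 0.03 to 2.06, adjusted p = 0.2), and these did not pass the adjustment. *JAZ1* had 70 against 49 (0.58, 0.03 to 1.14, adjusted p = 0.17). *JAZ7* was again the 1 member of 7 past 2-fold, as were 3.37% of all genes with at least 20 reads in a library, but with DESeq2 size factors its log2 ratio was 0.9983, under 2-fold. The ratios of *JAZ12* (-0.07, -0.25 to 0.11), *JAZ2* (0.13, -0.08 to 0.35) and *JAZ6* (0.04, -0.25 to 0.34) had intervals within 2-fold that held 0. *JAZ8* had 5 reads in *arf7*-Mock and 0 in WT-Mock (exact binomial p = 0.028), within a few reads of the limit that 0 allows.

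With NAA in both genotypes, *arf7*-NAA against WT-NAA, 0 of 10 JAZ genes were called (1.4% of 22489 genes) and 0 had an exact P under 0.05, against 20.5% of all genes, or an adjusted p under 0.05, against 11.6%. Of genes with at least 20 reads in a library 28.6% and 16.9% did so, and 3.68% passed 2-fold, against 0 of 7 members. With a biological coefficient of variation of 0.2 assumed, the edgeR exact test also gave 0 genes with an unadjusted p under 0.05. *JAZ7* had 18 reads against 34 (log2 ratio -0.84, interval -1.75 to 0.03, exact p = 0.051) and *JAZ9* 12 against 6 (1.08, -0.45 to 2.78). *JAZ6* had 135 against 142 reads, a log2 ratio of 0.00 (-0.35 to 0.36), *JAZ12* 428 against 478 (-0.08, -0.27 to 0.11) and *JAZ2* 307 against 339 (-0.07, -0.29 to 0.16). A difference of 2-fold lay outside the intervals of 6 genes (*JAZ1*, *JAZ2*, *JAZ3*, *JAZ5*, *JAZ6* and *JAZ12*). The median log2 ratio was -0.17, against 0.01 over all genes, with 2 genes higher and 7 lower in *arf7*-NAA, and the summed reads gave -0.09 (-0.22 to 0.03). These 4 comparisons share libraries, so a high or low library counts in more than 1 of them.

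Whether the NAA response itself differed between the genotypes was tested from all 4 libraries, as the log2 ratio in *arf7* minus the log2 ratio in WT. *JAZ3* and *JAZ7* were those with an adjusted p under 0.05 in the conditional exact test (2 of 10, against 8.0% of 23425 genes), and 3 had an exact P under 0.05 (*JAZ3*, *JAZ5* and *JAZ7*; 16.2% of all genes). None passed P under 0.0001 with a difference of at least 1 (0 of 10, against 1.26%). *JAZ3*, *JAZ5* and *JAZ7* each had at least 20 reads in a library. For the difference the shares are over all genes, and none was taken at that depth. In each of the 4 comparisons above, the shares with a P or adjusted p under 0.05 were higher at that depth. The *JAZ7* response was -0.54 in *arf7* and 1.31 in WT, a difference of -1.85 (-3.23 to -0.49, conditional exact p = 0.0036, adjusted p = 0.046). The *JAZ3* response was -0.65 in *arf7* and 0.59 in WT, a difference of -1.24 (-2.07 to -0.42, conditional exact p = 0.0021, adjusted p = 0.03). Both rest on counting error alone: in edgeR's interaction test with an assumed coefficient of variation of 0.2 the unadjusted p was 0.029 for *JAZ7*, 0.075 for *JAZ3* and 0.012 for *JAZ8*, which rests on 0 to 5 reads a library, and no adjusted p was under 0.05. *JAZ3* is 1 of the genes whose reads are split among models, and with its top model alone its adjusted p did not stay under 0.05.

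The differences of *JAZ5* (-1.05, -2.12 to 0.02, adjusted p = 0.27) and *JAZ1* (-0.76, -1.54 to 0.02, adjusted p = 0.32) had the same sign and did not pass the adjustment. The *JAZ5* interval held 0 although its conditional exact p was 0.04. The differences of *JAZ12* (-0.01, -0.28 to 0.26), *JAZ6* (-0.04, -0.50 to 0.42) and *JAZ2* (-0.20, -0.51 to 0.12) had intervals that held 0 and stayed under 1 log2 unit either way. *JAZ8* had a difference of -1.73 with its 0 reads set to 3 (conditional exact p = 0.061) and *JAZ9* of 0.55 (-1.65 to 2.79). In all, 8 of 9 differences were negative, with a median of -0.76 against 0.00 over all genes. Of the JAZ genes outside this set, *JAZ4* and *JAZ11* had a positive difference, that of *JAZ11* with an interval that held 0. *JAZ4* had a difference of 3.49 (0.48 to 6.67, conditional exact p = 0.0089). It rests on 10, 3, 3 and 10 reads in *arf7*-NAA, *arf7*-Mock, WT-NAA and WT-Mock and was not called. *JAZ11* had a difference of 0.47 (-0.39 to 1.33), and *JAZ13*, with at most 1 read in a library, had none. Tissue markers moved in the same libraries: 7 of 7 root markers had a negative difference (median -0.28, none called). The 4 of 4 green tissue markers with reads had a positive one (median 2.62, 2 called, against 1.26% of all genes). Of these, *LHCB1.1* rests on 2 to 5 reads a library, and its interval (-2.04 to 5.80) held 0. The part of the tissue markers in the JAZ differences was not tested. In the plot of both NAA responses the high-expressed members lay near the diagonal, and *JAZ7*, *JAZ3*, *JAZ5* and *JAZ1* lay below it.

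**Figure D3:**
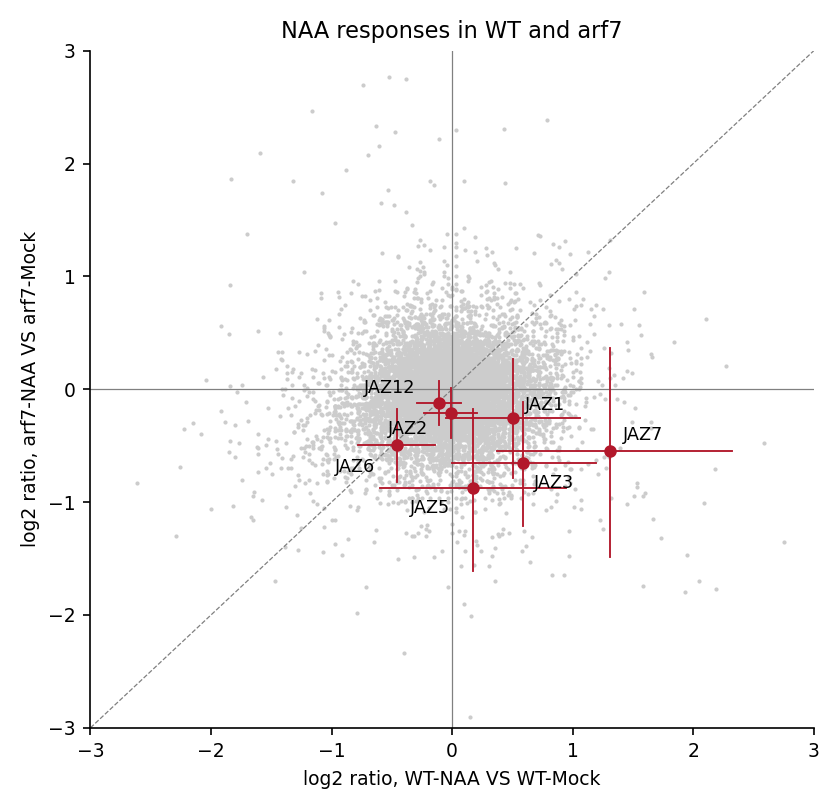
NAA response in *arf7* (log2 ratio, vertical axis) against NAA response in WT (log2 ratio, horizontal axis) for 14242 genes with at least 40 reads over each pair of libraries (grey) and 7 JAZ genes (red, with exact 95% intervals); the dashed line marks equal responses. *JAZ7*, *JAZ3*, *JAZ1* and *JAZ5* lie below the line, at positive ratios in WT and negative ratios in *arf7*.

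*JAZ7* had the widest range of the members with at least 10 reads in each library, 1.31 on the log2 RPKM scale, followed by *JAZ3* with 0.92 and *JAZ5* with 0.88. Among 11073 other genes with at least 50 reads in each library, the genes nearest to *JAZ7* by the distance between centred log2 RPKM over the 4 libraries were found. The nearest was AT3G25790, annotated as a myb-like transcription factor, with 149, 196, 266 and 121 reads in *arf7*-NAA, *arf7*-Mock, WT-NAA and WT-Mock and a distance of 0.19. It was followed by AT1G74450 (0.25), AT4G27657 (0.26), *UCP5*, which encodes an uncoupling protein (0.27, 286, 467, 492 and 261 reads), and the dirigent-like gene AT5G42510 (0.32). With 4 libraries this likeness is a description.

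The other genes of the pathway were taken as lists. Here too genes with several transcript models lose reads, so a low count or 0 is not evidence of a silent gene. Over all genes 0.776 to 1.4% were called in a comparison and 1.26% for the difference of the NAA responses. Of JA perception and the partners of JAZ, 12 of 12 genes had reads and none was called in any comparison or for the difference. The receptor gene *COI1* had 581, 587, 650 and 618 reads in *arf7*-NAA, *arf7*-Mock, WT-NAA and WT-Mock, and *ASK1*, a subunit of its ubiquitin ligase and the list's gene with the most reads, had 2001, 1840, 1913 and 2114. Of the transcription factors bound by JAZ, 13 of 15 had reads and none was called in the 4 comparisons. *MYC2*, the main target of JAZ repression, had 1485, 2034, 2595 and 1570 reads and was called for the difference of the NAA responses, -1.17 (-1.30 to -1.03, conditional exact p = 2.5e-68). *MYC2* was highest in WT-NAA and *arf7*-Mock, as was *JAZ7*. *EIN3*, the list's gene with the most reads, had 2520, 2531, 2717 and 3038.

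Of the JA synthesis genes, 13 of 14 had reads. The lipoxygenase gene *LOX4* fell in WT-NAA VS WT-Mock (39 against 91 reads, log2 ratio -1.19) and *LOX3* in *arf7*-NAA VS *arf7*-Mock (5 against 33 reads, -2.68), and these were the 2 calls of the list in the 4 comparisons (1 of 13 in each, against 1.09% and 0.776% of all genes). For the difference of the NAA responses 2 of 13 were called, against 1.26% of all genes, *LOX3* (-3.15, conditional exact p = 5.2e-05) and *AOC3*, an allene oxide cyclase gene (-1.14, p = 1e-23 in the same exact test; 585, 772, 820 and 488 reads in *arf7*-NAA, *arf7*-Mock, WT-NAA and WT-Mock). The list's median difference was -0.63. *KAT2*, a thiolase gene of beta-oxidation, had the most reads (6229, 4888, 6024 and 6423).

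Of the JA turnover genes, 12 of 13 had reads and no gene was called in WT-NAA VS WT-Mock or for the difference. The called genes were the acyl amido synthetase genes of the auxin-inducible GH3 family. Their part in jasmonate turnover in these roots was not tested. Of 12 tested, 1 was called in *arf7*-NAA VS *arf7*-Mock (0.776% of all genes). In *arf7*-Mock VS WT-Mock 1 was called higher and 1 lower (1.04% of all genes). In *arf7*-NAA VS WT-NAA 1 was called higher and 2 lower (1.4% of all genes). *GH3.3* was higher in *arf7*-NAA than in *arf7*-Mock (1622 against 697 reads, log2 ratio 1.26), in *arf7*-Mock than in WT-Mock (697 against 94 reads, 2.96) and in *arf7*-NAA than in WT-NAA (1622 against 171 reads, 3.32). *GH3.5* was lower in *arf7*-Mock than in WT-Mock (214 against 744 reads, -1.73) and in *arf7*-NAA than in WT-NAA (214 against 1165 reads, -2.37), and *GH3.6* was lower in *arf7*-NAA than in WT-NAA (238 against 726 reads, -1.53). Of the JA output genes, 8 of 11 had reads and none was called, and *PYK10*, a beta-glucosidase gene with the most reads of the list, had 159098, 163595, 144675 and 161015 in *arf7*-NAA, *arf7*-Mock, WT-NAA and WT-Mock. *VSP2*, a classic jasmonate marker, had at most 2 reads in a library. *TAT3*, a tyrosine aminotransferase gene of the same list, had 8, 12, 0 and 10 reads in *arf7*-NAA, *arf7*-Mock, WT-NAA and WT-Mock. Its 0 reads in WT-NAA against 10 in WT-Mock gave an exact binomial p of 0.002 (adjusted p = 0.02). With these 0 reads set to 3, its NAA responses differed by 1.16 (conditional exact p = 0.029). This sign is opposite to that of *JAZ3* and *JAZ7*, and it rests on few reads. Of the other TIFY genes, 9 of 9 had reads and none was called, with *PPD2* the highest (287, 280, 333 and 316 reads) and *JAZ11*, a further JAZ gene, at 51, 46, 46 and 57.

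Touch and wound genes, which respond within minutes to handling and to jasmonate-inducing wounds, were taken as a further list, of which 12 of 13 had reads. In WT-NAA VS WT-Mock 2 were called higher, *RRTF1* (log2 ratio 1.93) and *ORA47* (2.19), an activator of jasmonate synthesis, where 0.418% of all genes were called higher. In *arf7*-NAA VS *arf7*-Mock 4 were called lower, *TCH4* (-1.10), *WRKY40* (-1.65), *RRTF1* (-1.80) and *ORA47* (-1.77), against 0.386% of all genes. In *arf7*-Mock VS WT-Mock 2 were called higher, *RRTF1* (1.59) and *ORA47* (1.34), against 0.466% of all genes. In *arf7*-NAA VS WT-NAA 7 were called lower, *STZ*, *SZF1*, *WRKY40*, *RRTF1*, *ORA47*, *ERF5* and *ERF6*, against 0.805% of all genes.

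For the difference of the NAA responses 9 touch and wound genes were called lower in *arf7*, against 1.26% of all genes called either way, namely *ORA47* (-3.95), *RRTF1* (-3.73), *WRKY40* (-2.48), *STZ* (-1.86), *TCH4* (-1.55), *SZF1* (-1.53), *ERF5* (-1.10), *ERF6* (-1.09) and *TCH2* (-1.06). *RRTF1* had 49, 175, 228 and 61 reads in *arf7*-NAA, *arf7*-Mock, WT-NAA and WT-Mock, and *ORA47* had 18, 63, 116 and 26. The list's median difference was -1.53, with 10 of 11 negative, against -0.76 for the JAZ genes described here and 0.00 over all genes. *WRKY33*, the list's gene with the most reads, had 1621, 2651, 2361 and 3869 and was not called. The part of what moved the touch and wound genes in the JAZ values was not tested. Not all pathway lists went this way. The median difference was -0.63 for JA synthesis (7 of 12 negative), -0.27 for JA turnover (9 of 12) and -0.13 for the transcription factors bound by JAZ (5 of 9). It was 0.30 for JA perception and partners (5 of 12 negative), 0.27 for JA output (1 of 6) and 0.87 for other TIFY genes (2 of 6).

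**Figure D4:**
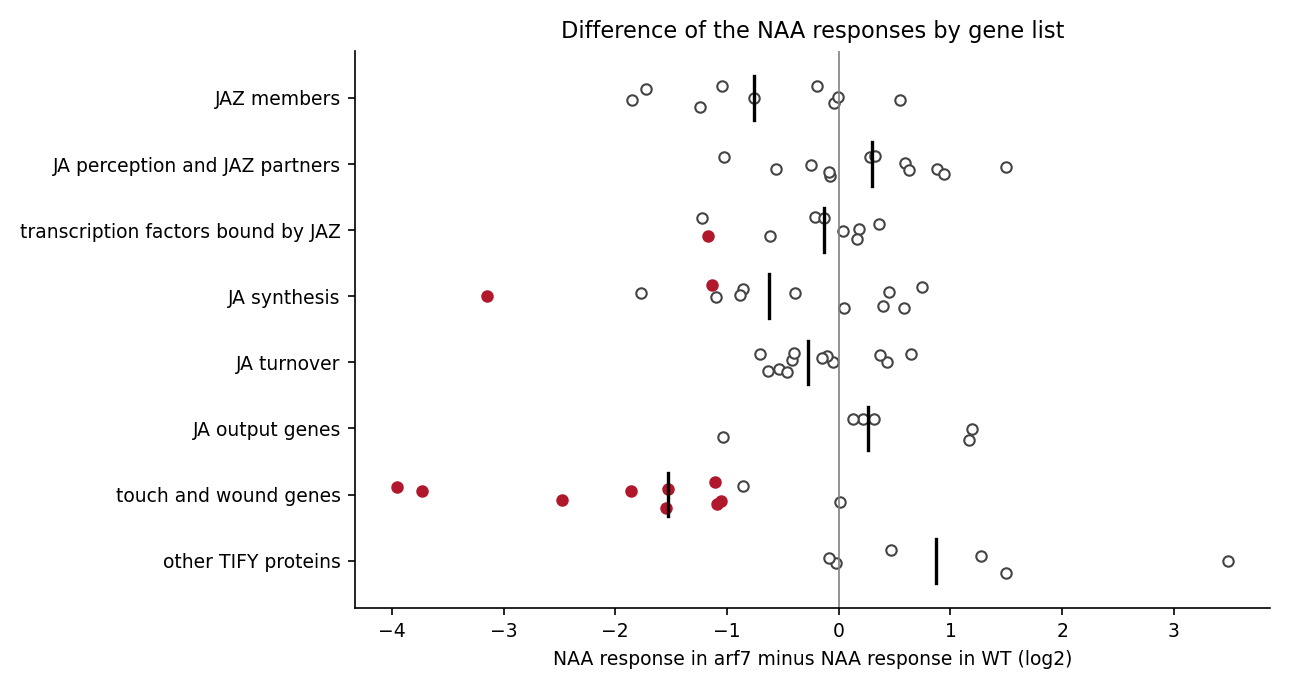
Difference of the NAA responses (log2 ratio in *arf7* minus log2 ratio in WT, horizontal axis) for the JAZ genes and each list, with a circle per gene with a ratio in both genotypes, red for a called gene and a bar at the median of the list. The JAZ median lies at -0.76 with no called gene, and the touch and wound median at -1.53 with 9 called.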

How the data were processed

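Root RNA was sequenced in 4 libraries. For each transcript model the authors deposited the count of uniquely assigned reads, its RPKM (the count scaled by transcript length and library total) and its coverage in percent of the transcript length; the aligner is not given in the sources used here. A further 4 deposited tables hold the authors' own fold changes and p-values for the comparisons; these and 16 per-sample columns in them were left out. Groups follow the sample labels.

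Counts were summed over the models of a gene. Ratios are of reads over the library total, 0 was set to 3 reads, and no ratio was formed where both libraries had 3 reads or fewer. The exact binomial test, the conditional exact test (Fisher's noncentral hypergeometric) and Benjamini-Hochberg adjustment ran over all genes with SciPy 1.17.1, pandas 2.3.3 and NumPy 2.4.6 under Python 3.11.15, and were tested on simulated data. Motifs were searched in the 500 bases before each gene start of TAIR10.1 (RefSeq), whose gene starts lie 0 to 317 bases upstream of those in the deposited tables. The members, lists and tests were chosen with earlier results of these data known. The adjusted p under 0.05 and its alternatives were added after seeing the data. Named are all 10 JAZ genes, the called genes of each list with its gene with the most reads (of the marker lists, the called genes and those at 0 in the text), and the 5 genes most like the member with the widest range. *COI1*, *VSP2*, *TAT3*, *JAZ4*, *JAZ11*, *JAZ13* and *LHCB1.1* were chosen after their values were seen.

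Both other scalings ran in R 4.3.3, TMM from edgeR 4.0.16 and size factors from DESeq2 1.42.0. Other alternatives were the model with the most reads in place of the sum, an adjusted p under 0.001, a pseudocount of 1 RPKM, at least 20 reads in 1 of the libraries, and edgeR tests in which the biological coefficient of variation was assumed to be 0.1, 0.2 or 0.4.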

Additional observations from a re-analysis of the deposited data

Results flagged for a closer look

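For *JAZ3* and *JAZ7* the NAA ratio of the *arf7* libraries differed from that of the WT libraries in a direct test of the difference, with 1 library per group. For *JAZ7* the response in *arf7* minus that in WT was -1.85 on the log2 scale (conditional exact test, adjusted p = 0.046), and the reads behind it were 18 in *arf7*-NAA, 27 in *arf7*-Mock, 34 in WT-NAA and 14 in WT-Mock. For *JAZ3* it was -1.24 (conditional exact test, adjusted p = 0.03), from 47, 76, 62 and 42 reads in the same order. Both tests cover counting error only. An adjusted p under 0.05 in this test was found for 2 of 10 JAZ genes and for 8.0% of 23425 genes. The *arf7*-NAA library also held 102 reads of seed markers and 642 of green tissue markers, whose part was not tested. With the model with the most reads the adjusted p of *JAZ7* alone was under 0.05, and in edgeR with an assumed coefficient of variation of 0.1, 0.2 or 0.4 neither was.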

How the results depend on the processing

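The count of 0 called JAZ genes in each comparison and for the difference held under every alternative run for it. TMM scaling and DESeq2 size factors moved log2 ratios by -0.02 to 0.02, which turned the sign of *JAZ2* in WT-NAA VS WT-Mock (0.0079 and 0.0053) and of *JAZ6* in *arf7*-NAA VS WT-NAA (-0.004 and -0.005), both near 0. The counts of JAZ genes with an adjusted p under 0.05 were 0 in every comparison and for the difference with edgeR and an assumed coefficient of variation of 0.1, 0.2 or 0.4, which adds variation beyond counting. With the model with the most reads the count for the difference was 1 (*JAZ7*). The other 366 values of single genes and 71 summaries kept their direction and their side of the call threshold, but not of every lesser line. With DESeq2 size factors *JAZ7* in *arf7*-Mock VS WT-Mock had a log2 ratio of 0.9983, under 2-fold. With the model with the most reads the exact p of *JAZ3* in WT-NAA VS WT-Mock was 0.071 and that of *JAZ1* in *arf7*-Mock VS WT-Mock 0.094. Low counts limit *JAZ8*, *JAZ9* and *JAZ10*, which had at most 12 reads in a library. For *JAZ9* and *JAZ10*, reads not unique to 1 transcript model are missing from these counts. No paired analysis was possible because each group has 1 library and the labels give no replicate numbers, and no library could be left out of a group for the same reason.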
